A study of Mus musculus with 12 samples.

Results

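Axon guidance ligands and receptors were compared between 2 fractions of mouse skin keratinocytes, parted by magnetic sorting (MACS) into cells with and without CD34, a cell surface protein that marks the bulge of the mouse hair follicle. The members were taken by symbol: semaphorins (Sema), plexins (Plxna to Plxnd), neuropilins (Nrp), Eph receptors and ephrins (Epha, Ephb, Efna, Efnb), Slit, Robo, netrins (Ntn) and Unc5. The rule found 69 of the 18193 genes that probe sets tied to exactly 1 gene could measure. Among them 67 are guidance ligands or receptors, 35 ligands and 32 receptors. The remaining 2 share only the letters: Unc50 encodes a Golgi membrane protein and Plxna4os1 an antisense transcript of Plxna4. The mice were of the strain labelled C57 DBA, and age and sex are not given in the sources used here. Total RNA of the sorted skin keratinocytes came from 3 isolations, each of a pool of 6 or more mice. Each RNA was placed on 2 Affymetrix Mouse 430 2.0 arrays, which gave 6 CD34+ and 6 CD34- arrays from 3 RNA samples per fraction. The labels name no treatment or allele for either fraction, and the CD34- fraction is defined only by lacking the marker.

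Guidance cues were named for steering growing axons, and the same families act in epithelia, vessels and immune cells, where they set cell contact, repulsion and migration through the actin cytoskeleton. Semaphorins signal through plexins, secreted class 3 semaphorins mostly with a neuropilin as co-receptor, while Sema3e binds plexin D1 directly. Slits bind Robo receptors, netrins bind Dcc, neogenin and Unc5 receptors, and membrane-bound ephrins bind Eph receptor tyrosine kinases on a neighbouring cell and signal in both directions. Eph and ephrin signals are known for keeping cell compartments apart.

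Values are log2 RMA expression values, so a difference of 1 is a 2-fold change, and positive differences mean higher in CD34+ cells. Array levels of different probe sets are not compared. The sort marker Cd34 was at 10.15 ± 0.55 (SD, n = 6 arrays) in CD34+ and 3.23 ± 0.30 in CD34- arrays. Of 7 bulge markers 7 were higher in CD34+ cells, a count that holds Cd34 itself, on which the cells were sorted. Of 7 keratinocyte markers 0 were higher and 4 lower, with a mean over the list of 11.4 to 12.5 on the 12 arrays. All 7 measured T cell markers were lower in CD34+ cells (list mean 5.45 to 6.72 against 7.44 to 8.50), as were 4 of 8 Langerhans and myeloid markers (5.54 to 5.71 against 5.95 to 6.60). Of 7 dermal fibroblast markers 4 were higher and 1 lower (5.34 to 6.63 against 4.35 to 5.35), the 1 that fell being Thy1, which the T cell list also holds. Of 10 endothelial markers 0 passed by limma (3 at an unadjusted p under 0.05), and their list mean was 3.58 to 4.00 against 3.54 to 3.64, with Tek and Emcn no higher than the Trpn control probe sets, which mark the low end of the scale at 2.31 to 2.95. Of 6 smooth muscle and pericyte markers 3 were higher, Cspg4 (0.79), Rgs5 (0.37) and Myh11 (0.29), and 0 lower (list mean 5.02 to 5.66 against 4.76 to 5.18). Of 5 measured Schwann cell markers 2 were higher, Pmp22 (2.09) and Sox10 (0.49), and 2 lower (7.13 to 7.46 against 6.88 to 7.37). Of 7 melanocyte markers 1 was higher, again Sox10, and 1 lower (4.60 to 5.04 against 4.56 to 4.90). The part that these other cells had in the member differences was not tested, and in such bulk samples fewer cells of a type and less RNA per cell cannot be told apart. For Actb, the control probe set at the 3' end exceeded that at the 5' end, a sign of RNA quality, by 3.95 to 5.65 in CD34+ and 1.82 to 3.24 in CD34- arrays. For Gapdh the gap was 3.66 to 4.63 against 3.10 to 3.57. This measure went with the fraction, so its part in the member differences cannot be told apart from that of the sort. CD34+ arrays 1, 3 and 5 had a narrower spread of values than the rest, so results are also given without them where they change.

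The sharpest differences in the family were the rises of the ligand Sema3e (18.6-fold) and the receptor Plxna2 (4.73-fold) in CD34+ cells and the fall of the receptor Robo1, which was 5.27-fold lower. By limma, with p-values adjusted after Benjamini and Hochberg over all genes and a threshold of 0.05, 22 of the 69 members passed (31.9%, against 26.1% of all genes). Of these 9 were higher (13.0%, against 7.99% of all genes) and 13 lower (18.8%, against 18.1%) in CD34+ cells, so the number of calls lay near the background and the members are described one by one. Of the called members 8 differed at least 2-fold (11.6%, against 6.65% of all genes), 2 of them higher (2.90%, against 1.98%) and 6 lower (8.70%, against 4.67%). The median log2 difference was 0.10 over the members and 0.04 over all genes. Among the 35 ligands 7 rose (20%, against 7.99% of all genes) and 6 fell (17.1%, against 18.1%). Among the 32 receptors 2 rose (6.2%, against 7.99%) and 7 fell (21.9%, against 18.1%). Whether these splits differ from each other or from all genes was not tested. The split depended on the scaling between arrays, with 12 higher and 11 lower members after a further quantile normalization and 5 higher and 14 lower after centring each array on its median. All genes shifted the same way. Of their calls 69.4% were lower with the deposited values, 54.3% after quantile normalization and 80.8% after centring. For the members these shares were 59.1%, 47.8% and 73.7%. The arrays of the fractions did not overlap for 14 members (20.3%, against 12.9% of all genes), 7 in each direction.

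**Figure D1:**
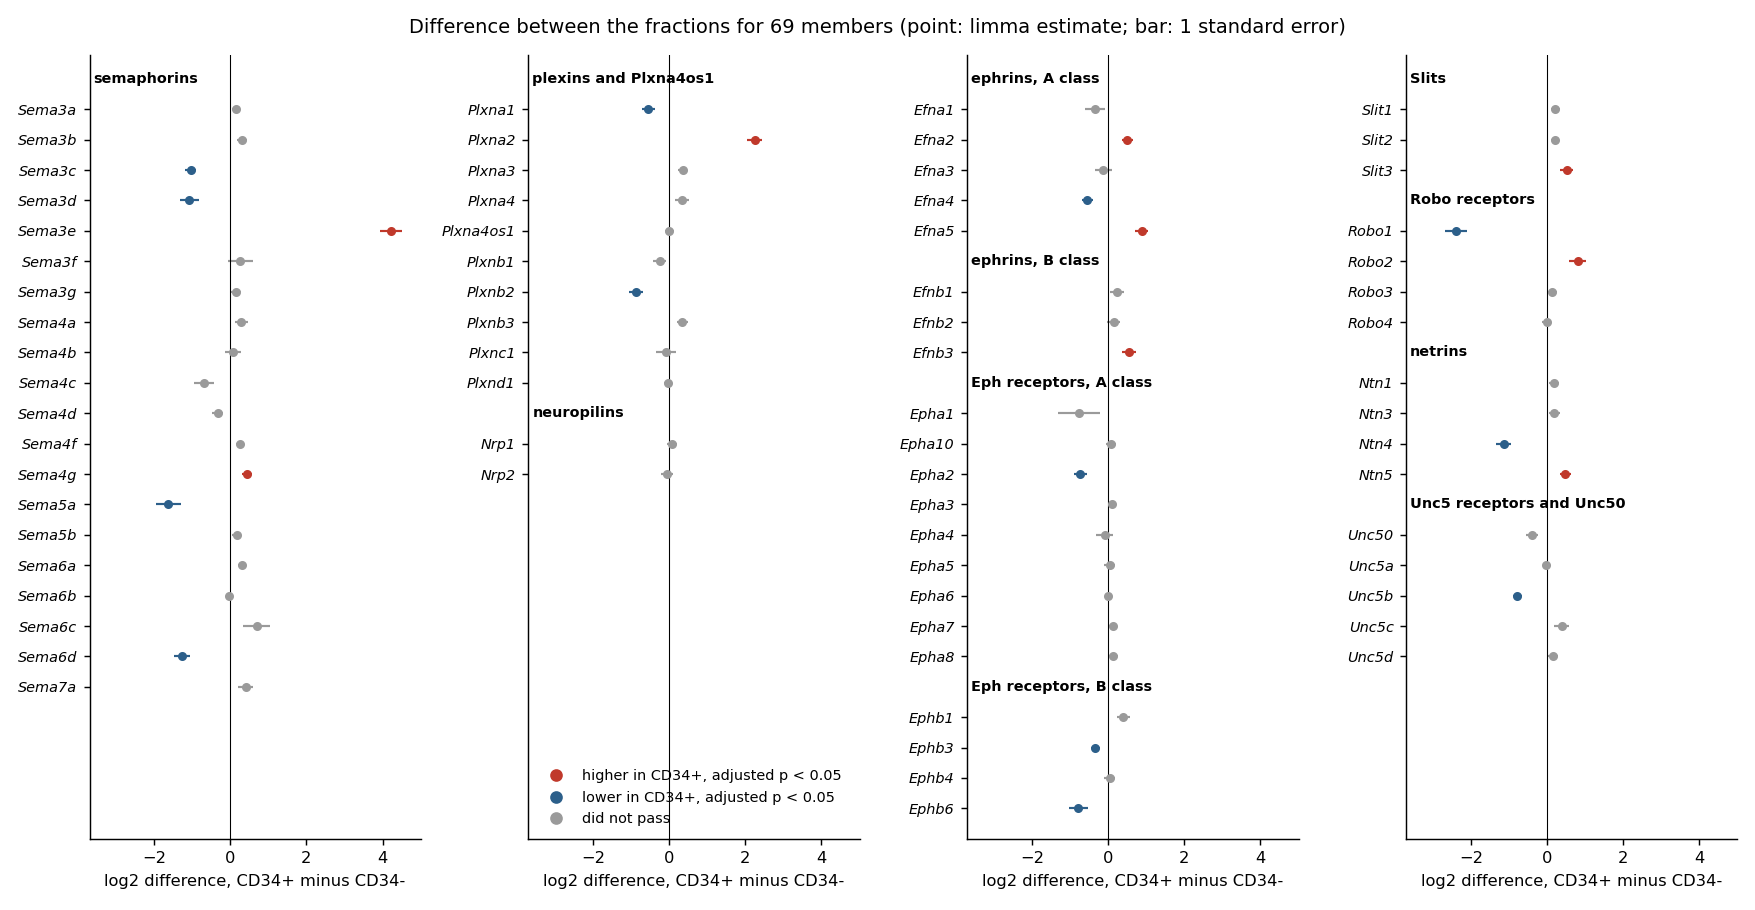
Log2 difference between the fractions (x axis, CD34+ minus CD34-) for each of the 69 members, grouped by family. Points are limma estimates, bars 1 standard error, red and blue mark members past the threshold. Sema3e (4.22) and Plxna2 (2.24) stand to the right and Robo1 (-2.40) to the left, while most members lie within 1 log2 unit of 0.

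The class 3 semaphorins, secreted ligands, moved in both directions. Sema3e (probe set 1442226_at) read from 7.16 to 9.16 with a median of 8.81 on CD34+ arrays and from 3.90 to 4.66 with a median of 4.29 on CD34- arrays. Every CD34+ array was thus above every CD34- array, and the lowest was CD34+ array 3. The log2 difference was 4.22 (SE 0.29, limma adjusted p = 4.31e-07). All of its other probe sets rose too, by 3.65, 2.08 and 0.58, and the mean of all 4 gave 2.63 (adjusted p = 5.29e-06). Sema3c (1429348_at), which acts in vessel and heart outflow patterning, ran from 9.48 to 9.93 (median 9.79) in CD34+ and from 10.31 to 11.10 (median 10.79) in CD34- arrays, again without overlap, a difference of -1.04 (SE 0.14, limma adjusted p = 0.000181). Sema3d (1429459_at) ran from 7.31 to 9.05 (median 8.37) in CD34+ and from 8.90 to 9.57 (median 9.38) in CD34- arrays. Its fractions overlapped, since CD34+ array 4 lay above the lowest CD34- array, and the difference was -1.08 (SE 0.25, limma adjusted p = 0.0068) or -0.56 (adjusted p = 0.0311) without CD34+ arrays 1, 3 and 5. Second probe sets of Sema3c (-1.15) and Sema3d (-1.24) fell as well. Sema3a, Sema3b, Sema3f and Sema3g did not pass, with differences of 0.14 to 0.31 by the probe sets used.

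Sema3d, Sema3a, Sema3e and Sema3c lie in this order on mouse chromosome 5 in RefSeq's gene order (GRCm38.p6), with 0, 3 and 15 other protein-coding genes between neighbours, and of the 3 that passed Sema3e rose while Sema3d and Sema3c fell. The 250 bases before the RefSeq gene start are shown for the 3 of them that changed, because they belong to 1 chromosome and changed in both directions, and for Plxna2, the semaphorin receptor that rose. Sequences are from RefSeq (GRCm38.p6), 5′ to 3′ on the gene's strand. Capitals mark matches on either strand to any of the words searched. These were the core of TCF and LEF sites, CTTTGA, and the core of many homeodomain sites, TAATTA. For E2F factors the word TTTCCCGC was searched, and as a second form the word TTTGGCGC. The GC box was searched as GGGCGG, and the TATA box was searched as TATAAA.
Sema3e, chr5:14025026-14025275, + strand: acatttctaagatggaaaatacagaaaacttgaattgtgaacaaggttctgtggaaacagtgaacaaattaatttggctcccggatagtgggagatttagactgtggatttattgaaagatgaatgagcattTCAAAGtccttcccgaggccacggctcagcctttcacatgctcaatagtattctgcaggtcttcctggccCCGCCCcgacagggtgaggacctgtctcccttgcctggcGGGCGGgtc
Sema3d, chr5:12382916-12383165, + strand: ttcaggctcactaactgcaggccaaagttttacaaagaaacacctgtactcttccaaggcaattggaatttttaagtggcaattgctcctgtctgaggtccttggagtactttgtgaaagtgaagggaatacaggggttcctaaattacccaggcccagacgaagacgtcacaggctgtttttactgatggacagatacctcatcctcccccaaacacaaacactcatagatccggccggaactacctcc
Sema3c, chr5:17574566-17574815, + strand: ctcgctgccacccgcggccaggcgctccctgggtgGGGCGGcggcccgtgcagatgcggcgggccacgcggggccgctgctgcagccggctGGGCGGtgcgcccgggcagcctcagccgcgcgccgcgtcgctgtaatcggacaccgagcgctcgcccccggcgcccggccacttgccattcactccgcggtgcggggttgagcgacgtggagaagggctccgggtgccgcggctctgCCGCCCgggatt
Plxna2, chr1:194619579-194619828, + strand: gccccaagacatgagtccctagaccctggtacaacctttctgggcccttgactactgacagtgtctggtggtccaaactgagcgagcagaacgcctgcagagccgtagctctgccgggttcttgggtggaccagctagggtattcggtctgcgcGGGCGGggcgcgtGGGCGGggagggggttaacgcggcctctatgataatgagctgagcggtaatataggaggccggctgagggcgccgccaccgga
The Sema3e window holds 1 CTTTGA match, at -118 from the gene start, and 2 GC boxes, while that of Sema3d holds none of these words. The window of Sema3c holds 3 GC boxes and that of Plxna2 holds 2. Bases G and C made up 48.0% of the window of Sema3e, 46.8% of Sema3d, 78.4% of Sema3c and 62.8% of Plxna2, beside a median of 52.4% over all 32851 RefSeq promoter windows. Of all windows 13.8% hold CTTTGA, 4.84% TAATTA, 1.30% an E2F word, 32.7% a GC box and 12.4% TATAAA. Members with a window held CTTTGA in 1 of 8 that rose and 1 of 12 that fell, a GC box in 6 of 8 and 9 of 12, and TAATTA, an E2F word or TATAAA in 0 of either. Neighbouring GC boxes could overlap in part, and each start was counted. These are matches of letters, not known binding sites. Windows of members that did not pass were not counted, and whether GC boxes go with the change between fractions was not tested.

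The transmembrane semaphorins that passed were mostly lower. Sema5a (1437422_at), whose product carries thrombospondin repeats, ran from 4.77 to 7.51 (median 5.88) in CD34+ and from 7.26 to 8.03 (median 7.62) in CD34- arrays. Only CD34+ array 4 reached into the CD34- range, and the difference was -1.63 (SE 0.34, limma adjusted p = 0.00292), or -1.02 (adjusted p = 0.0269) without CD34+ arrays 1, 3 and 5. A second probe set fell by 1.71, a further pair at the low end of the scale was at -0.03 and 0.03, and the mean of all 4 gave -0.84 (adjusted p = 0.00052). Sema6d (1453055_at), a class 6 semaphorin that binds plexin A1, ran from 3.99 to 5.30 (median 4.53) and from 5.49 to 6.29 (median 5.75). The fractions did not overlap, and the difference was -1.27 (SE 0.20, limma adjusted p = 0.000448). None of its 3 other probe sets passed (0.21, -0.08 and -0.08, all with low means), and the mean of all 4 gave -0.31 (adjusted p = 0.0221). Sema4g, a class 4 semaphorin, rose by 0.44 (adjusted p = 0.034), or by 0.71 (adjusted p = 0.00127) without CD34+ arrays 1, 3 and 5. The call was lost after median centring and when 1 of 7 arrays was dropped (CD34+ arrays 2, 4 and 6, CD34- arrays 1, 3, 5 and 6). For the single arrays the adjusted p was 0.0509 to 0.0770. The other class 4 members did not pass, from Sema4c (-0.69, adjusted p = 0.0728) through Sema4d (-0.34), which lymphocytes are known to express, to 0.28, and Sema4f (0.25, adjusted p = 0.0839) did not overlap between fractions without passing. Sema6c (0.69, adjusted p = 0.158) and Sema7a (0.41, adjusted p = 0.139), a lipid-anchored ligand of plexin C1 and integrin beta 1, did not pass either, and both turned slightly below 0 without CD34+ arrays 1, 3 and 5. A second probe set of Sema6c passed as higher (0.55, limma adjusted p = 0.0475 over all probe sets). In all, 2 of 20 semaphorins rose (10%, against 7.99% of all genes), 4 fell (20%, against 18.1%) and 14 did not pass, shares near the background.

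**Figure D2:**
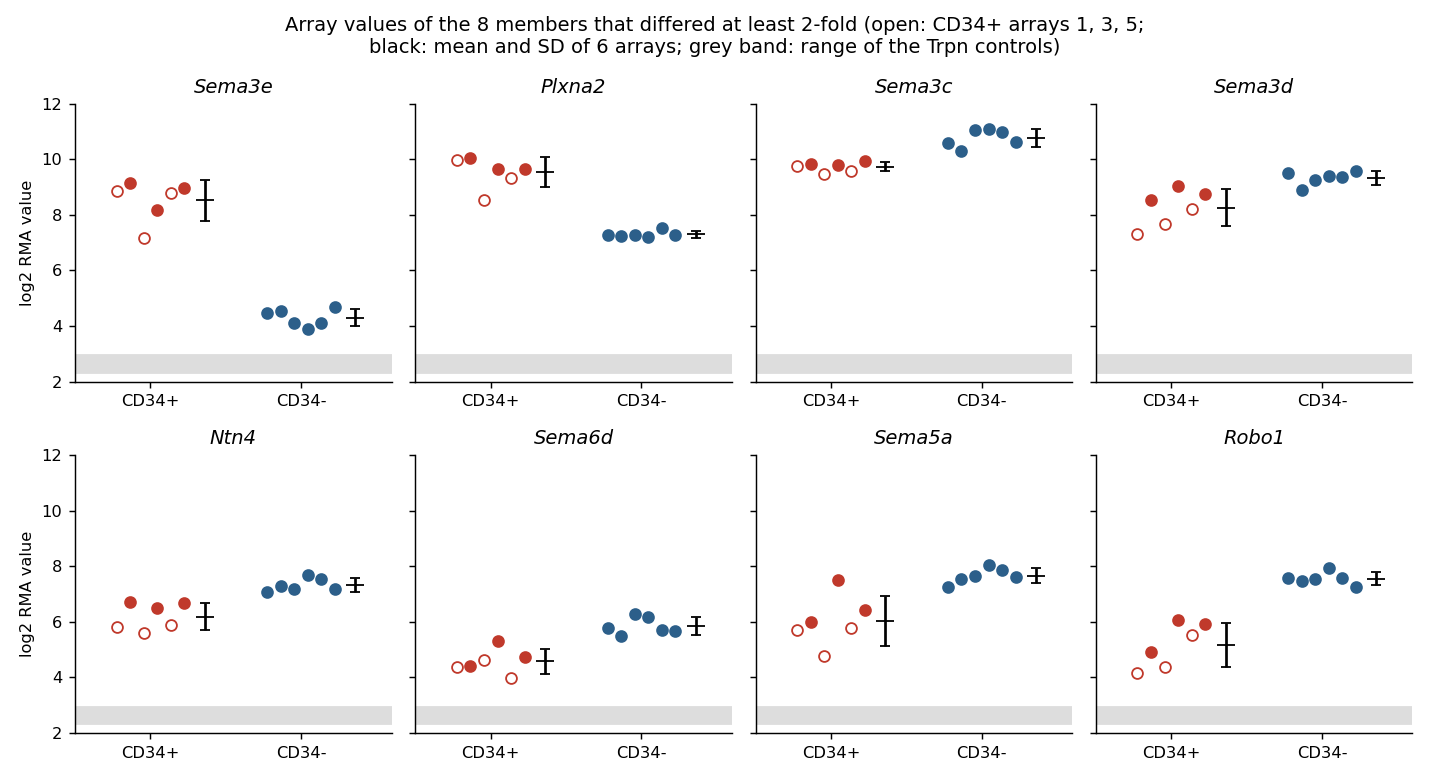
Log2 RMA value (y axis) on each array for the 8 members that passed and differed at least 2-fold, CD34+ in red and CD34- in blue. Open circles are CD34+ arrays 1, 3 and 5, black bars the mean and SD of 6 arrays, and the grey band the range of the Trpn controls. Sema3e and Plxna2 arrays of the fractions are far apart, and CD34+ values of Robo1, Sema5a and Sema3d are spread widely.

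Among the plexins, the receptors of semaphorins, Plxna2 alone reached a 2-fold change. By the probe set used (1453286_at) it ran from 8.54 to 10.05 (median 9.65) in CD34+ and from 7.21 to 7.53 (median 7.26) in CD34- arrays. The arrays did not overlap, with CD34+ array 3 again lowest, and the difference was 2.24 (SE 0.21, limma adjusted p = 8.14e-06). Its 3 other probe sets rose by 1.99, 1.87 and 2.17. Plxna1 fell by 0.55 (adjusted p = 0.025), a call lost without CD34+ arrays 1, 3 and 5 (-0.25, adjusted p = 0.272) and, with an adjusted p of 0.0538 to 0.0623, when CD34+ array 1 or 5 or CD34- array 4, 5 or 6 was dropped. Plxnb2, a receptor of class 4 semaphorins, ran from 7.77 to 9.03 in CD34+ and from 9.05 to 9.65 in CD34- arrays, narrowly without overlap, a difference of -0.88 (SE 0.18, limma adjusted p = 0.00317) that was -0.55 (adjusted p = 0.0256) without CD34+ arrays 1, 3 and 5 and -0.58 after a further quantile normalization. Plxna3 (0.35, adjusted p = 0.0625), Plxna4 (0.34, adjusted p = 0.181), Plxnb1 (-0.26, adjusted p = 0.238), Plxnb3 and Plxnc1 (-0.08) did not pass. Plxnb1 turned to 0.05 after quantile normalization. Plxnd1, the direct receptor of Sema3e, was at 3.93 ± 0.06 in the CD34+ and 3.96 ± 0.25 in the CD34- fraction (SD over 6 arrays) and did not pass (-0.03, limma adjusted p = 0.835). The neuropilins did not pass, Nrp1 at 0.08 (adjusted p = 0.671) and Nrp2 at -0.07 (adjusted p = 0.771), and each changed sign after a further quantile normalization, as did Nrp1 after median centring. For Nrp2 the other probe sets were at 0.59, 0.26 and 0.08 and none of them passed. Plxnd1, Nrp1 and Nrp2 therefore showed no change past the threshold beside the rise of Sema3e.

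Receptors of Slit proteins moved in opposite directions. Robo1 (1427231_at) ran from 4.14 to 6.07 (median 5.22) in CD34+ and from 7.27 to 7.94 (median 7.55) in CD34- arrays, without overlap. The difference was -2.40 (SE 0.30, limma adjusted p = 8.34e-05). A second probe set fell by 0.45 (adjusted p = 0.0261 over all probe sets), the third was at 0.23 near the low end of the scale and did not pass, and the mean of all 3 gave -0.87 (adjusted p = 0.000144). Robo2, next to Robo1 on chromosome 16 with 0 protein-coding genes between, ran from 3.08 to 4.68 (median 3.30) in CD34+ and from 2.66 to 2.80 (median 2.71) in CD34- arrays. Every CD34+ array was above the CD34- arrays, CD34+ array 2 by far the most. The difference was 0.81 (SE 0.22, limma adjusted p = 0.0167), or 0.58 (adjusted p = 0.00278) without CD34+ array 2. Its CD34- mean lies within the Trpn range, so the size of the difference is uncertain. Robo3 and the endothelial receptor Robo4 did not pass (0.13 and -0.01). Of the ligands, Slit3 passed by little (0.51, SE 0.18, limma adjusted p = 0.0495) and lost its call on leaving out any single array but CD34+ arrays 3 and 4 (adjusted p 0.0588 to 0.106), when arrays 1-2, 3-4 and 5-6 were averaged (adjusted p = 0.114), and after median centring (adjusted p = 0.149). Slit1 (0.21) and Slit2 (0.20, adjusted p = 0.096) did not pass, although Slit2 arrays did not overlap. The Slit2 means, 3.39 in CD34+ and 3.19 in CD34- arrays, were near the low end of the scale.

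**Figure D3:**
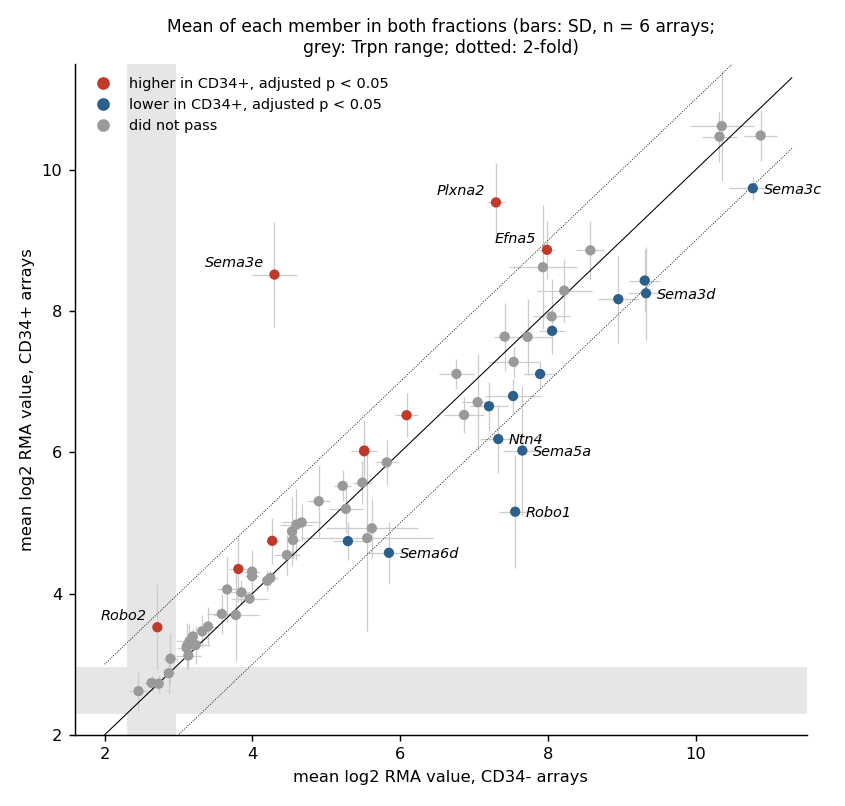
Mean log2 RMA value of each of the 69 members in CD34- (x axis) and CD34+ arrays (y axis), with SD over 6 arrays as bars. The solid line marks equal means, dotted lines a 2-fold difference and grey bands the range of the Trpn controls, within which the CD34- mean of Robo2 (2.71) lies.

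Of the 4 netrins 1 rose and 1 fell, and of the 5 members named Unc5, Unc50 among them, 0 rose and 1 fell. Over all genes 7.99% rose and 18.1% fell. Whether these small families differ from all genes was not tested. Ntn4 (1439794_at), a netrin of basement membranes that binds laminin, ran from 5.60 to 6.71 (median 6.17) in CD34+ and from 7.08 to 7.69 (median 7.24) in CD34- arrays. The fractions did not overlap, and the difference was -1.14 (SE 0.20, limma adjusted p = 0.00102), or -0.71 (adjusted p = 0.00543) without CD34+ arrays 1, 3 and 5. A second probe set with low means was at 0.32 and did not pass, and the mean of both gave -0.41 (adjusted p = 0.00202). Unc5b, a netrin receptor also known from vessels, ran from 6.84 to 7.38 and from 7.57 to 8.11, likewise apart, with a difference of -0.79 (SE 0.12, limma adjusted p = 0.00044) that was -0.48 (adjusted p = 0.0184) after a further quantile normalization. The second Unc5b probe set was at -0.27 and did not pass (limma adjusted p = 0.0956 over all probe sets). Ntn5 rose by 0.48 (adjusted p = 0.0198), a call that leaving out CD34+ arrays 1, 3 and 5 ended (0.24, adjusted p = 0.11). Ntn1, the best-known netrin, was at 3.32 ± 0.24 in the CD34+ and 3.15 ± 0.16 in the CD34- fraction (SD over 6 arrays) and did not pass (0.18, limma adjusted p = 0.294), nor did Ntn3, Unc5a, Unc5c and Unc5d. Both Ntn1 means lay within 1 log2 unit of the highest Trpn value, so a lack of change in Ntn1 cannot be read from them. Unc50, which shares only the letters, did not pass either (-0.40, adjusted p = 0.0874) by the probe set used, though its other probe sets fell by 1.10 and 0.52. Plxna4os1 read within the Trpn range in both fractions, at 2.87.

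Of the 8 ephrins 3 rose (37.5%, against 7.99% of all genes) and 1 fell (12.5%, against 18.1%). Of the 13 Eph receptors 0 rose (against 7.99%) and 3 fell (23.1%, near the 18.1% of all genes that fell). Whether ephrins and receptors differ was not tested. Efna5, a lipid-anchored ephrin, ran from 8.14 to 9.27 (median 8.95) in CD34+ and from 7.82 to 8.10 in CD34- arrays (mean 7.99 ± 0.11). The arrays did not overlap, and the difference was 0.88 (SE 0.16, limma adjusted p = 0.00148), the largest among the ephrins by the probe sets used. Its other probe set was at 0.03 and the mean of both gave 0.46 (adjusted p = 0.00663). Efna2 rose by 0.50 (adjusted p = 0.018) and lost its call after median centring (adjusted p = 0.0833), while the mean of its probe sets gave 0.31. The transmembrane ephrin Efnb3 rose by 0.54 (adjusted p = 0.044), a call lost after either further scaling, without any single array but CD34+ arrays 2, 4 and 6, and without CD34+ arrays 1, 3 and 5 (0.17, adjusted p = 0.354). Efna4 fell by 0.55 (adjusted p = 0.00957). Efna1 (-0.34, adjusted p = 0.333) did not pass, and Efnb2 (0.15, adjusted p = 0.515) did not either by the probe sets used. A second probe set of Efnb2 passed as lower (-0.60, limma adjusted p = 0.0418 over all probe sets). Of the receptors, Epha2, a regulator of keratinocyte contact and differentiation, ran from 6.43 to 7.08 in CD34+ and from 7.10 to 8.05 in CD34- arrays, a difference of -0.73 (SE 0.17, limma adjusted p = 0.00618) that did not pass after a further quantile normalization (-0.44, adjusted p = 0.129) or, at about the same size, without CD34+ arrays 1, 3 and 5 (-0.70, adjusted p = 0.0505). Ephb6, a receptor without kinase activity, fell by 0.78 (log2 difference -0.78, adjusted p = 0.0314) and Ephb3 by 0.34 (adjusted p = 0.036). Both calls ended when CD34+ arrays 1, 3 and 5 were left out (-0.27, adjusted p = 0.355 for Ephb6, and -0.38, adjusted p = 0.0614 for Ephb3, no smaller than with all arrays), and each also lost its call without any of 6 single arrays (CD34+ 1, 3 and 5 and CD34- 4, 5 and 6 for Ephb6, CD34+ 1, 4 and 5 and CD34- 1, 3 and 6 for Ephb3), with adjusted p of 0.0550 to 0.0840. Ephb3 also did not pass after a further quantile normalization (-0.03) or under the filter on low values (adjusted p = 0.0501). Epha1 varied most among these receptors (4.78 ± 1.32 in the CD34+ and 5.55 ± 0.89 in the CD34- fraction, SD over 6 arrays, limma adjusted p = 0.313). Epha4 (-0.09, adjusted p = 0.775), a receptor with a wide choice of ephrins, did not pass, nor did Ephb1 (0.40, adjusted p = 0.118) and Ephb4, and Epha3 and Epha6 read within the Trpn range in both fractions.

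The 69 members are covered by 152 probe sets, 45 members by more than 1. Of the 21 other probe sets of members that passed, 10 passed in the same direction, 0 in the opposite one and 11 did not pass, of which 9 had both fraction means within 1 log2 unit of the highest Trpn value or lower. Over all named probe sets 24.0% passed. A further 10 probe sets passed although their member did not by the probe set used, and they belong to 9 members. Among these 9 members the widest disagreement was in Sema3f, a secreted semaphorin that binds neuropilin 2. The probe set used, 1438947_x_at, was at 0.26 (adjusted p = 0.542), while 1425840_a_at was at 4.87 in CD34+ and 7.01 in CD34- arrays, a difference of -2.14 (limma adjusted p = 5.72e-07 over all probe sets), and the third was at -0.44 (adjusted p = 0.0542). In Affymetrix names an x marks a probe set with some probes that can also match other transcripts. A second probe set of Efna1 was at -1.21 (adjusted p = 0.000142), and that of Plxnb1 at -0.83 (adjusted p = 0.00118). These members are therefore uncertain, and they were singled out after their values were seen.

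**Figure D4:**
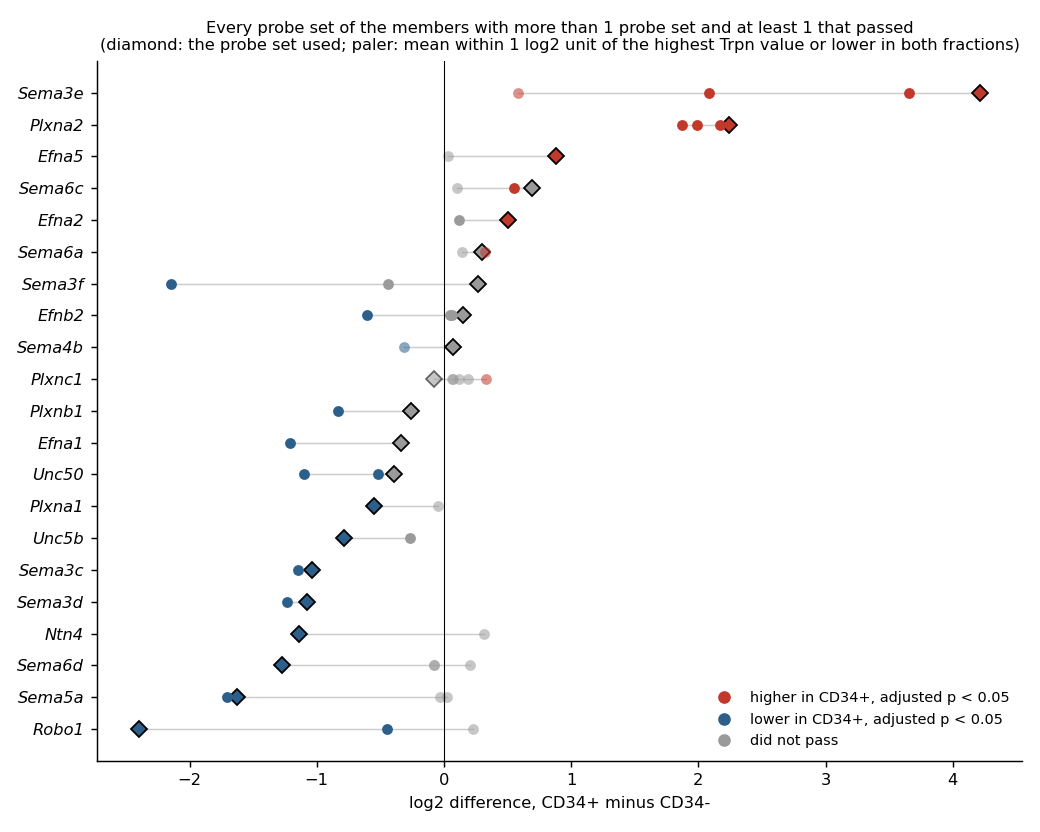
Log2 difference (x axis) of every probe set of the members that have more than 1 and at least 1 past the threshold. Diamonds are the probe sets used, colours the direction of calls over all probe sets, paler points are probe sets with low means in both fractions. The 4 probe sets of Plxna2 lie close together at 1.87 to 2.24, and those of Sema3f run from -2.14 to 0.26.

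Other genes of the pathway, from 2 lists, moved in both directions. Of 25 co-receptors and binding partners 5 rose (20%, against 7.99% of all genes) and 6 fell (24.0%, against 18.1%), with a median of 0.08. Nrcam, a cell adhesion molecule that pairs with neuropilins, was at 7.21 ± 1.00 in the CD34+ and 3.68 ± 0.25 in the CD34- fraction (SD over 6 arrays), a rise of 3.53 (SE 0.37, limma adjusted p = 2.14e-05). Both netrin receptors of the Dcc family rose, Neo1 by 0.90 (adjusted p = 0.00428) and Dcc by 0.42 (adjusted p = 0.0159), and Sdc1 (0.66) and Flrt2 (0.58) completed the rises. Sdc1 did not pass after median centring or with the mean of its probe sets. Flrt2, an Unc5 ligand, lost its call under either of those settings, with means of arrays 1-2, 3-4 and 5-6, and when 1 of 9 arrays was dropped (all but CD34+ arrays 3 and 4 and CD34- array 6, adjusted p 0.0622 to 0.0940). The largest falls were those of Rgmb (-1.40), a ligand of neogenin, integrin beta 1, Itgb1 (-1.16), the glypican Gpc1 (-1.07), the receptor kinase Erbb2 (-0.97) and Flrt3 (-0.91). Itgb1 was at -0.51 (adjusted p = 0.134) once CD34+ arrays 1, 3 and 5 were left out. Of 44 measured cytoplasmic effectors 8 rose (18.2%, against 7.99% of all genes) and 12 fell (27.3%, against 18.1%), with a median of 0.00. These shares were not tested against the rest of the genes. Rises were led by Farp1 (2.03, adjusted p = 7.48e-06), an exchange factor that works with class A plexins, Ngef (1.86), an exchange factor downstream of Eph receptors, the scaffold Grip1 (1.62), the actin regulator Enah (1.5), which acts downstream of Robo, and the adaptor Nck2 (1.02). Falls were led by the adaptor Nck1 (-1.45, adjusted p = 3.13e-05), the exchange factor Vav3 (-1.37), Gipc1 (-1.19), which binds neuropilin 1, and the GTPases Rac1 (-0.98) and Rhoa (-0.82). Without CD34+ arrays 1, 3 and 5 the counts were 5 higher and 4 lower co-receptors and partners and 10 higher and 9 lower effectors. After centring each array on its median they were 3 and 7, and 6 and 15. Over all genes 1602 were higher and 1900 lower without those arrays, and 901 and 3801 after centring. With all arrays as deposited they were 1454 and 3296.

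Members varied more among CD34+ than among CD34- arrays, as genes did in general. The SD over arrays was larger in the CD34+ fraction for 60 of 69 members (87.0%) and for 84.2% of all genes, with a median SD of 0.32 against 0.18 over the members. Of the 22 members past the threshold, 13 kept their call in the same direction under every alternative that tested them: Sema3e, Plxna2, Efna5 and Robo2 above, and Robo1, Sema5a, Sema6d, Ntn4, Sema3d, Sema3c, Plxnb2, Unc5b and Efna4 below. Robo2 was left out by the filter on low values. The other 9 lost the call under 1 or more and 0 turned round.

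**Figure D5:**
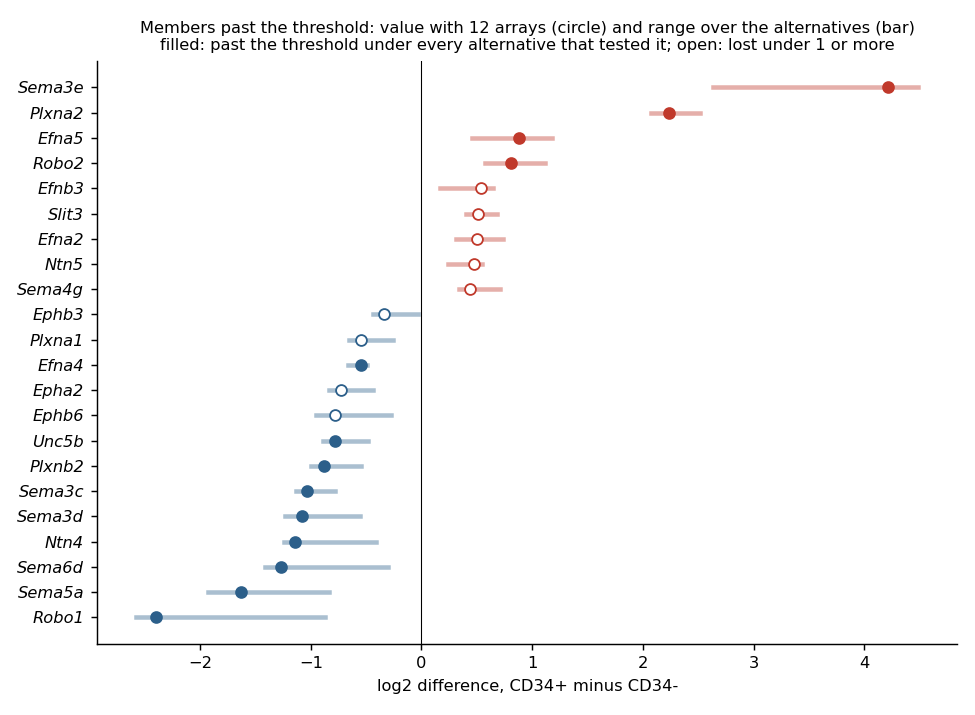
Log2 difference (x axis) of the 22 members past the threshold with 12 arrays (circles) and its range over the alternatives (bars). Filled circles kept the call under every alternative that tested them, open circles lost it under 1 or more. The bar of Plxna2 runs from 2.07 to 2.51 and that of Robo1 from -2.58 to -0.87.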

How the data were processed

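Per the labels, keratinocyte RNA was extracted with a miRNeasy kit, biotin labelled and hybridised to Affymetrix arrays. The values the authors deposited are on a log2 scale, 1 for every probe set of an array. RMA is the tool named per the submitters' processing notes (no version is given in the sources used here). RMA corrects background, normalizes and sums probes, which compresses low signals. It gives no detection call. Whether all 12 arrays were normalized together is not given in the sources used here, and the SD over probe sets ran from 1.92 to 2.32. Of 45101 probe sets 64 controls were set aside, 34945 were tied to 1 gene by GEO's platform annotation, 932 to several and 9160 stayed unnamed here. Where several probe sets measured 1 of the 18193 genes, the one with the highest mean of the 12 arrays stood for it.

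The comparison used lmFit and eBayes of limma 3.58.1, run under R 4.3.3. Tests were two-sided, and p-values were adjusted by the Benjamini-Hochberg method across genes, with a threshold of 0.05. Values of other probe sets were adjusted over all named probe sets. The fit was checked on simulated data in which all 12 arrays were independent, so the check cannot cover arrays that share an RNA. Which arrays share an RNA cannot be read from the labels, so all 12 entered as separate samples: p-values then measure the spread between arrays, part of it technical, and are too small where arrays of 1 RNA are alike. The number of arrays limits the precision. Equal array numbers did not pair the fractions throughout (the correlation of deviations was -0.27 to 0.50 over 6 numbers). The CD34- array of the same number was the best match for CD34+ arrays 1, 4 and 6, but not for 2, 3 and 5. Whether some arrays are paired is thus not settled. Alternatives were a block on the number, pair means, 2 scalings, a low filter (mean above 3.95 in 1 fraction), the mean of a gene's probe sets, and leaving out arrays. Members and lists were chosen with earlier results of these data known. Per-array values were given for members past the threshold and at least 2-fold changed, with Efna5, Robo2, Plxnb2, Unc5b and Epha2 added after their values were seen. Of each pathway list up to 5 rises and 5 falls were named, plus Dcc and Neo1.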

Additional observations from a re-analysis of the deposited data

Results flagged for a closer look

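Among the 44 sets of 6 arrays behind the members past the threshold, 2 held an array far from the other 5, judged by its gap to the nearest array over the whole range, and chance alone marks about 5% of such sets. Robo2 read 4.68 on CD34+ array 2, while the next CD34+ array read 3.65 and all CD34- arrays 2.66 to 2.80. Plxna2 read 7.53 on CD34- array 5, above the next value of 7.26, in a fraction whose whole range was 0.33, so its difference of 2.24 between the fractions was many times larger than that gap.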

How the results depend on the processing

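Of the 22 members past the threshold, 21 were called again with the replicate block on the array number (14 lower and 8 higher in all, and 4998 genes), 21 with means of arrays 1-2, 3-4 and 5-6, 19 after a further quantile normalization, 18 after median centring and 16 without CD34+ arrays 1, 3 and 5. Under the block Slit3 was lost (adjusted p = 0.0582). No other call of these 22 changed under it, and of the pathway genes named Flrt2 was lost (0.58, adjusted p = 0.065). Equal numbers did not pair the arrays throughout, so the block is given here alone. The 4750 genes past the threshold over all genes were 3677 to 5957 without 1 array. Members higher in CD34+ cells numbered 6 to 11 and lower 10 to 15 without 1 array, and the higher ones numbered 5 after median centring. Over all genes the higher ones numbered 1454 with the deposited values and 901 after median centring. With the mean of all probe sets of a gene 12 members were higher and 17 lower (1637 and 3389 of all genes). Of the 47 members that did not pass, 16 passed under 1 or more alternatives. Sema3f, Plxnb1 and Efna1 were among them, with a lowest limma adjusted p over the alternatives of 0.000515, 0.00405 and 0.00589. A change of sign under 1 or more alternatives was seen in 32 of the 47 members that did not pass. The values that follow cover only part of them and are not complete for a setting. Differences became -0.022 for Nrp1 and -0.10 for Plxna4os1 after median centring. After quantile normalization they were 0.19 for Epha4, -0.013 for Nrp1, 0.011 for Nrp2, -0.11 for Plxna4os1 and 0.045 for Plxnb1. With the mean of all probe sets they were -0.086 for Efnb2, 0.22 for Nrp2, 0.11 for Plxnc1 and -0.77 for Sema3f. Without CD34+ arrays 1, 3 and 5 they were 0.13 for Epha4, 0.25 for Efna1, -0.014 for Ntn1, -0.22 for Plxna4os1, -0.39 for Sema3f, -0.052 for Sema6c and -0.0097 for Sema7a. Without 1 array they ran from -0.20 to 0.086 for Epha4, -0.023 to 0.14 for Nrp1, -0.17 to 0.017 for Nrp2, -0.052 to 0.098 for Plxna4os1, -0.22 to 0.12 for Plxnc1 and -0.11 to 0.048 for Plxnd1. The cause was not tested. Signals near the Trpn range limit 16 of the 69 members, which the low filter removed, Robo2, Ntn1 and Slit2 among them.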
